A study of Mus musculus with 278 samples.

Results

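The genes described here are 37 contractile and actin-binding genes of the mouse mammary epithelium. They were taken as a list of gene symbols with no threshold on expression, and all 37 of the 37 were found among the 25106 named genes kept for analysis. They fall into 16 structural genes known from smooth muscle (Acta2, Actg2, Myh11, Mylk, Myl9, Cnn1, Tagln, Tpm1, Tpm2, Cald1, Smtn, Lmod1, Des, Synpo2, Csrp1 and Pdlim3), 15 widely expressed relatives and actin binders (Actg1, Myh9, Myh10, Myl6, Myl12a, Cnn2, Cnn3, Tagln2, Tpm3, Tpm4, Flna, Actn1, Actn4, Vcl and Pdlim7) and 6 regulators (among them Myocd, Srf, Ppp1r12a and Ppp1r14a). Of the 16 structural genes, 9 also stood in the list of basal genes that the study derived from bulk RNA, so their direction between lineages was known from other samples.

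The data are RNA-seq profiles of 278 single mammary epithelial cells from FVB/NJ mice, each captured on the Fluidigm C1 microfluidic device and sequenced as a library of its own. Adult glands gave 112 cells sorted as basal (CD29-high, CD24+) and 43 sorted as luminal (CD29-low, CD24+), both after removal of blood and endothelial lineages. From pregnant mice, at mid-pregnancy by the study's account, 123 cells came from the total epithelium, which was not split by lineage. Cells with at least 50000 reads in kept genes were retained: 85 adult basal, 41 adult luminal and 96 pregnancy cells. The labels tie no cell to an animal, and the study pooled glands of several mice, so each group counted as 1 sample. There is therefore no test between groups below, and every interval is a 95% interval for counting error only, which does not cover differences between animals.

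The lobules and ducts of the mammary gland have an inner luminal layer, which makes milk, and an outer basal layer, whose mature cells are called myoepithelial because they are epithelial by origin and keratin content but carry the contractile apparatus of smooth muscle. In smooth muscle, calcium entry activates calmodulin and myosin light chain kinase, which phosphorylates the regulatory light chain so that myosin pulls on actin filaments, while myosin phosphatase reverses this. In the lactating gland, oxytocin starts the same sequence in myoepithelial cells and expels milk from the alveoli.

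Expression is given as CPM, the reads of a gene scaled to 1000000 reads in kept genes, over the summed reads of a group or within 1 cell. Retained cells had from 54018 to 1292552 reads, with medians of 379189 in adult basal, 638820 in adult luminal and 215429 in pregnancy cells. Shares of cells with a read were taken after each cell had been thinned at random to 50000 reads. Among adult basal cells, 76 of 85 had at least 3 of the 4 basal markers Krt5, Krt14, Krt17 and Trp63, and all 41 adult luminal cells had at least 3 of the 5 luminal markers Krt8, Krt18, Krt19, Elf5 and Prlr. Pregnancy cells were classed by how many basal and luminal lineage genes they expressed, with the contractile genes and milk genes left out of both lists: 36 of 96 were of basal class, 29 of luminal class, 29 reached both thresholds (mixed) and 2 reached neither. These classes were less clean than the sorts. The 4 basal markers and, except for Krt8, the luminal markers stand in the study's lists that set the classes. Counts of them are therefore no independent check of the classes. At least 3 basal markers were read in 30 of 36 basal-class cells. At least 3 luminal markers were read in 17 of 36, beside 9 of 85 adult basal cells. Of the luminal class, 28 of 29 had at least 3 luminal markers and 0 of 29 had at least 3 basal markers. Of the basal markers there, Krt14 was read in 23 of 29 cells, Krt5 and Krt17 in 2 each and Trp63 in 0. The fibroblast marker Dcn was read in 30 of 36 basal-class, 14 of 85 adult basal and 13 of 41 adult luminal cells. The fibroblast markers Col1a1, Col1a2, Pdgfra, Lum and Dpt were each read in only 3 to 7 of the 36 basal-class cells. At least 3 fibroblast markers were read in 5 of 36.

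In adult cells the smooth muscle genes were abundant in the basal layer, and most of them were close to undetected in most luminal cells. The exceptions were Tpm1 and Cald1, and to a lesser degree Pdlim3 and Csrp1, read in 12 and 11 of 41 luminal cells. Together the 16 structural genes made up 3.10% of all reads in adult basal cells and 0.07% in adult luminal cells. Of the 16, 13 were at least 4-fold higher in adult basal than in adult luminal cells and none was 4-fold lower. Their median log2 ratio was 6.15, beside -0.32 over the 14358 genes compared. Single luminal cells weighed on this median: without the highest cell of each group for each gene it was 8.61 over the 15 genes that could be compared, with Synpo2 at its bound. A 4-fold difference was common in this comparison: 14.8% of all genes were at least 4-fold higher and 22.8% at least 4-fold lower in basal cells, and over all 37 contractile genes the counts were 17 higher and 1 lower.

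Acta2, the alpha actin of smooth muscle and a standard marker of myoepithelium, ranged from 204 to 38728 CPM over the 85 adult basal cells, with a median of 9121, and had a read in all 85. Over the 41 adult luminal cells its lowest and median values were both 0 and its highest was 3950 CPM, with reads after thinning in 1 cell. Summed over cells, Acta2 stood at 9840 CPM in basal and 115 CPM in luminal cells, a log2 ratio of 6.42 (interval 6.36 to 6.47). The overlap between the groups came from luminal cell 35, which held 99.2% of the luminal Acta2 reads, and without the highest cell of each group the log2 ratio was 13.30. Transgelin (Tagln), an actin-binding protein of the smooth muscle cytoskeleton, followed at 5968 CPM and was also read in all 85 basal cells, from 44.7 to 19297 CPM with a median of 5319. It reached 92.9 CPM in luminal cells, where 6 of 41 had a read.

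Myosin and its light chain machinery were likewise read in most basal and few luminal cells. Myh11, the heavy chain of smooth muscle myosin, had a median of 2779 CPM in basal cells (0 to 9540) and was read in 83 of 85. In luminal cells it was read in 3 of 41, with a highest value of 888 CPM. Mylk, the calcium-dependent kinase that switches smooth muscle myosin on, had a basal median of 2092 CPM (0 to 17755, 78 of 85 cells) against 4 of 41 luminal cells. Myl9, the regulatory light chain it phosphorylates, had a basal median of 1120 CPM (0 to 5532, 81 of 85 cells) against 2 of 41 luminal cells. The log2 ratios of the summed levels were 6.52 for Myh11, 7.24 for Mylk and 6.30 for Myl9, and 83, 76 and 81 of the 85 basal cells lay above every luminal cell other than cell 35.

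The thin-filament regulators were present in nearly every basal cell as well. Tpm2, a tropomyosin that lies along the actin filament, had a basal median of 2753 CPM (4.63 to 11118, 84 of 85 cells) and reads in 2 of 41 luminal cells, with a log2 ratio of 9.25 (8.99 to 9.53). Caldesmon (Cald1), which restrains myosin on the filament, had a basal median of 1898 CPM and was read in 84 of 85 basal and 17 of 41 luminal cells, with a log2 ratio of 4.65. Calponin 1 (Cnn1) had a basal median of 885 CPM, reads in 78 basal and 2 luminal cells, and a log2 ratio of 5.37. Tpm1 was the least lineage-restricted of these: it was read in 84 of 85 basal and in 29 of 41 luminal cells, at medians of 1588 and 64.0 CPM, a log2 ratio of 3.34.

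**Figure D1:**
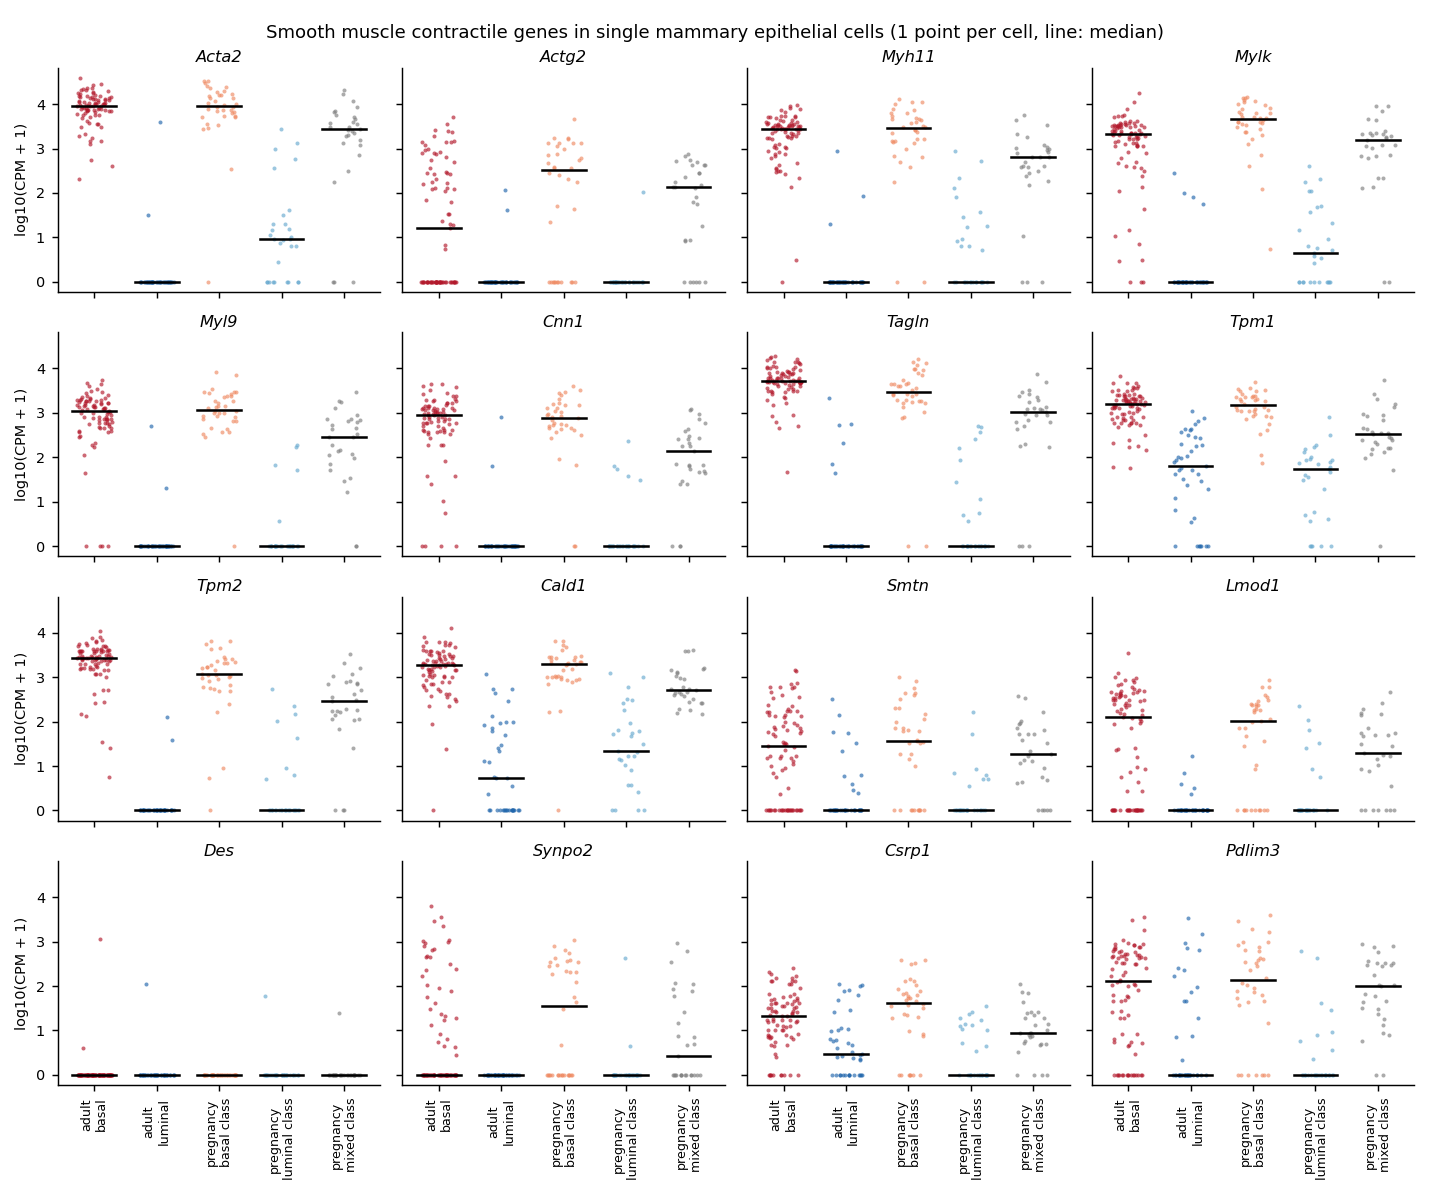
Level per cell of the 16 smooth muscle genes, as log10(CPM + 1), in adult basal, adult luminal and pregnancy cells by class, with each point 1 cell and bars at the group medians. Acta2 lies above 200 CPM in every adult basal cell and at 0 in 39 of the 41 adult luminal cells.

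A second set of structural genes was patchy within the basal layer. Actg2, the gamma actin of gut and other visceral smooth muscle, was read in 40 of 85 adult basal cells (47.1%, interval 36.1 to 58.2%), with a median of 14.8 CPM and a highest value of 5078. Synpo2, an actin-bundling protein of the dense bodies to which filaments anchor, was read in 27 of 85, up to 6348 CPM, and had no read in any adult luminal cell, which put it at least 2138-fold higher in basal cells against a floor of 3 reads. Leiomodin 1 (Lmod1), which nucleates actin filaments in smooth muscle, was read in 54 of 85 cells and smoothelin (Smtn) in 45 of 85. Reads of Actg2 and Synpo2 did not fall in the same cells throughout. Of the 85, 15 had both, 25 had Actg2 alone, 12 had Synpo2 alone and 33 had neither. For Actg2 and Lmod1, 28 had both, 12 had Actg2 alone, 26 had Lmod1 alone and 19 had neither. At low levels a missed read cannot be told apart from absence of the transcript. These shares describe cells thinned to 50000 reads, and without thinning Actg2 was read in 45 and Synpo2 in 35 cells.

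The other 3 structural genes stayed below the 4-fold line. Csrp1, a LIM protein of smooth muscle, stood at 40.6 CPM in basal and 18.0 CPM in luminal cells, and Pdlim3, an adaptor of alpha-actinin, at 332 and 124 CPM, with luminal cell 38 alone reaching 3343 CPM. Desmin (Des), the intermediate filament protein of most muscle, was all but absent: 99.4% of its 179 adult basal reads came from cell 49 and all of its 75 adult luminal reads from cell 43. Luminal cell 43 had reads of 5 of the 8 pericyte and vascular smooth muscle markers.

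Per transcript length the smooth muscle genes covered a wide range in adult basal cells. Acta2 stood at 5528 RPKM (CPM divided by the length of the counted gene model in kilobases) and Tagln at 3763, followed by Tpm2 at 1311 and Myl9 at 1098. Cald1, Cnn1 and Tpm1 lay close together at 562, 517 and 498, and Myh11, Mylk, Actg2 and Pdlim3 between 395 and 210. Lmod1, Smtn, Synpo2 and Csrp1 lay between 63.4 and 22.9 RPKM and Des at 2.33. Neighbours in this order overlapped widely from cell to cell.

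**Figure D2:**
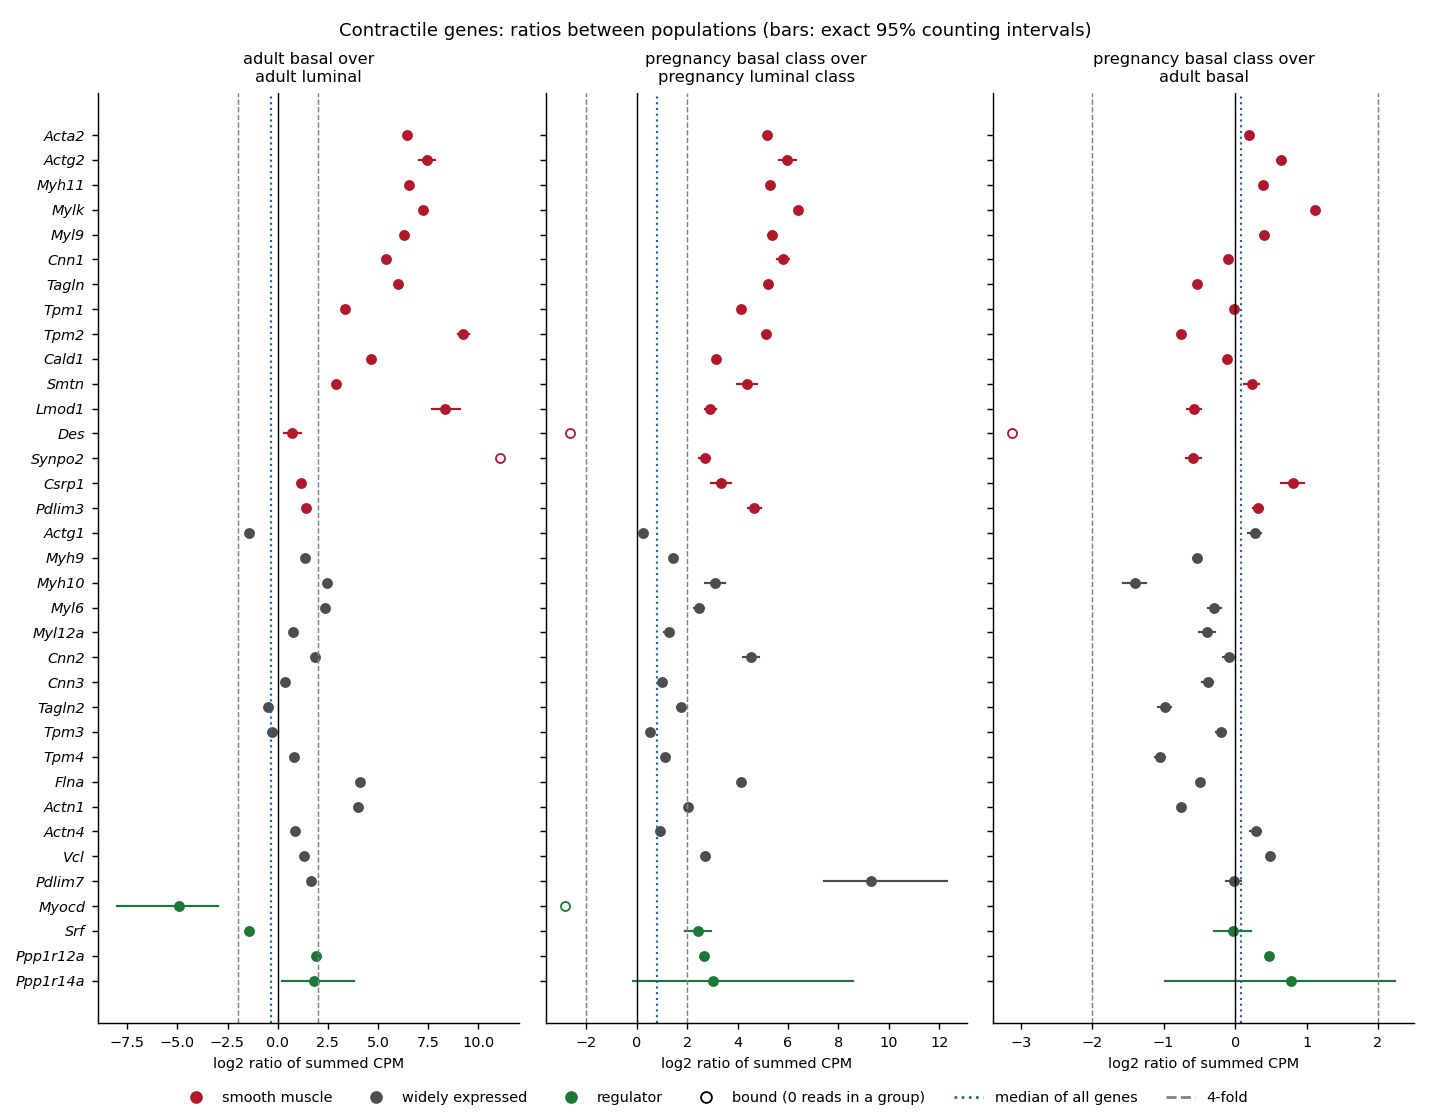
Log2 ratios of the genes described here, by role, for adult basal over adult luminal cells, pregnancy basal over pregnancy luminal class and pregnancy basal class over adult basal cells, with 95% counting intervals as bars, the median of all genes and the 4-fold lines drawn, open points for bounds and a scale of its own in each panel. Except for Des, the smooth muscle genes lie to the right of the median of all genes in both lineage comparisons, with 13 and 15 of the 16 beyond the 4-fold line, and within 4-fold of 0 between the stages.

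The families of these genes can be told apart in sequence, although they encode very similar proteins. The last 60 coding bases of the 4 actins, from GENCODE transcripts on mm10, show where reads separate them, and bases that differ from Acta2 are in capitals.
Acta2, chr19:34241670-34241729, minus strand: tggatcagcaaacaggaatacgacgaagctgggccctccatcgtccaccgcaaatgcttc
Actg2, chr6:83512988-83513047, minus strand: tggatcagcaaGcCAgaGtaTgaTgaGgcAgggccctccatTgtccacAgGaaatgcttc
Actg1, chr11:120346393-120346452, minus strand: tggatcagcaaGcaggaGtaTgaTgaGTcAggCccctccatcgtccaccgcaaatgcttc
Actb, chr5:142903801-142903860, minus strand: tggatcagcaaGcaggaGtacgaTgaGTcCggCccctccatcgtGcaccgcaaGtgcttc
Within this stretch Actg2 differs from Acta2 at 11 positions, Actg1 at 8 and Actb at 9, and over the last 1100 coding bases identity with Acta2 is 84.4%, 82.2% and 83.5%. No 75-base window of Acta2 or Actg2 occurs in a transcript of any other gene, so at this length no read of theirs matches another gene exactly.

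Other members do share windows with transcripts of other genes, and their counts are less certain. The share of 75-base windows found in another gene's transcripts was 54.5% for Actg1, 53.3% for Tpm3 and 40.9% for Tagln. It was 38.9% for Vcl, whose partner is Ap3m1, and 26.9% for Myl12a, whose partner is Myl12b. For 21 of the 37 genes no window was shared.

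In each of 6 families the smooth muscle members made up a larger share in the basal than in the luminal layer. They were the larger part of the family in basal cells for 5 of the 6, while for actins the widely expressed members remained the larger part. Per transcript length, Acta2 and Actg2 made up 47.5% of the RPKM of 4 actins in adult basal and 1.37% in adult luminal cells, where Actb made up 93.6%. Myh11 made up 67.6% of 3 non-sarcomeric myosin heavy chains in adult basal cells and 5.85% in adult luminal cells, where Myh9, the main non-muscle myosin, made up 88.7%. For the other families the smooth muscle share in basal and luminal cells was 82.1% and 3.76% for Myl9 among regulatory light chains, 93.3% and 13.5% for Tagln among transgelins, 78.5% and 11.6% for Tpm1 and Tpm2 among tropomyosins, and 61.1% and 6.43% for Cnn1 among calponins. In adult basal cells the smooth muscle actins came on top of Actb, which stood at 11944 CPM there and at 8543 CPM in luminal cells.

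**Figure D3:**
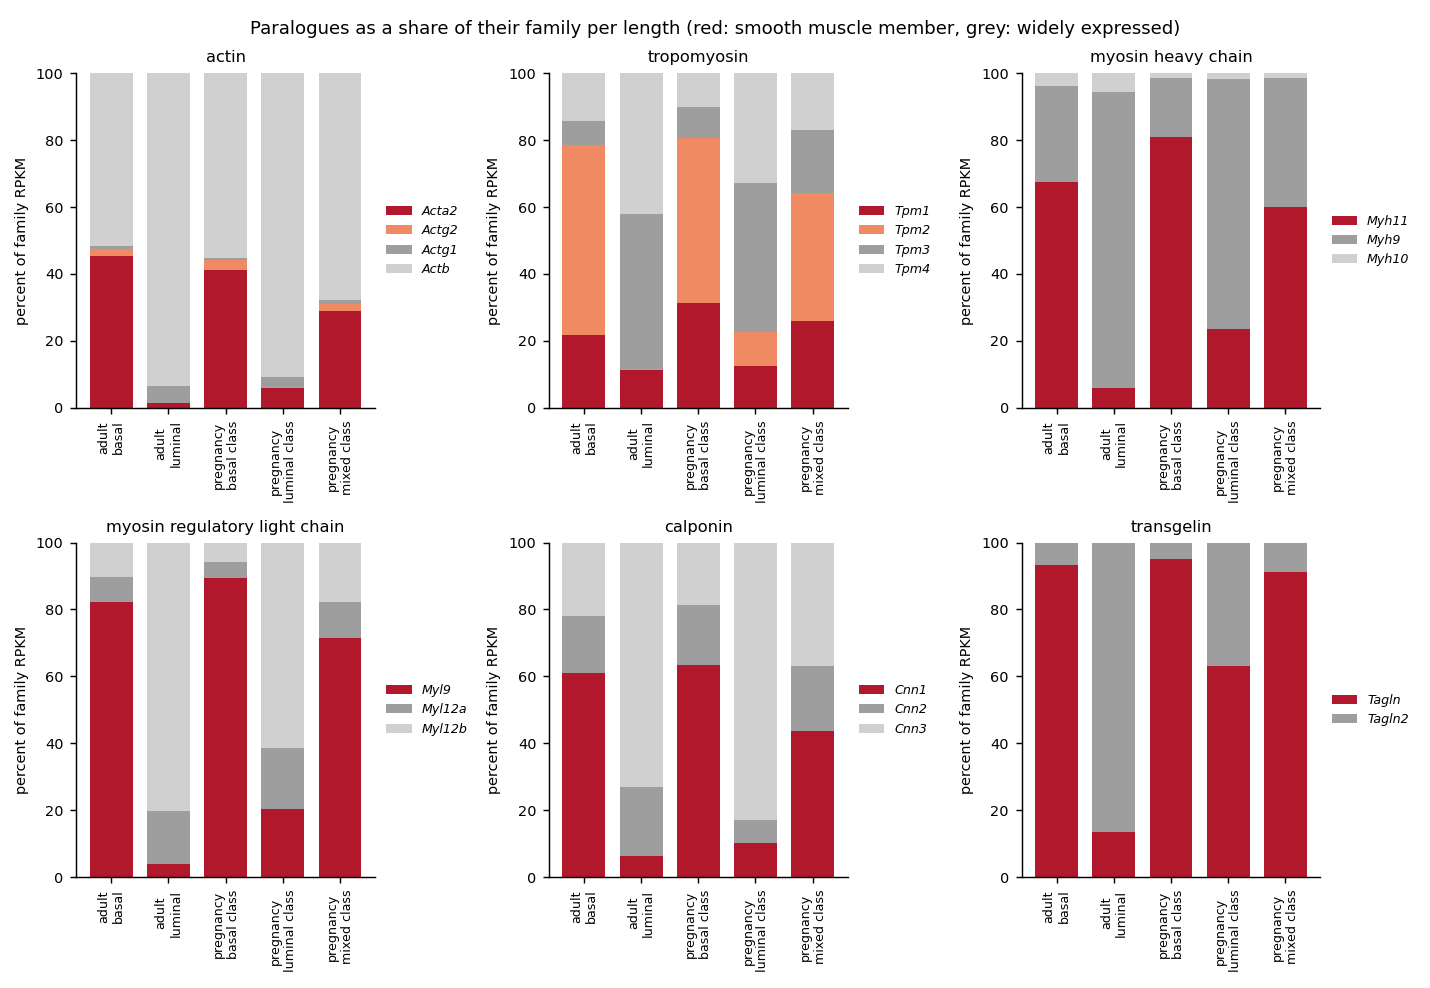
Percent of each family's summed RPKM from each member, stacked, with smooth muscle members in red and orange and widely expressed ones in grey, for 6 families in adult basal, adult luminal and 3 classes of pregnancy cells. In all 6 families the red and orange part is largest in the adult basal and pregnancy basal bars and smallest in the adult luminal bar.

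The widely expressed members were more even, with a median log2 ratio of 1.30 between adult basal and luminal cells. Of the 15, 4 were at least 4-fold higher in basal cells, beside 14.8% of all genes. They were filamin A (Flna), which cross-links actin filaments, at 4.11, and alpha-actinin 1 (Actn1), which anchors them, at 4.01. The others were the non-muscle myosin Myh10 at 2.48 and the essential light chain Myl6, which smooth muscle and non-muscle myosin share, at 2.35. Flna had a median of 1222 CPM over basal cells (0 to 4391) and of 11.9 CPM over luminal cells (0 to 569). Actn1 had medians of 1621 (0 to 8114) and 67.3 CPM (0 to 571). The upper parts of both basal distributions lay above every luminal cell, while the lower parts overlapped with it. Its relative Actn4 differed less, at 266 and 146 CPM, and the summed levels of vinculin (Vcl), Myh9, Cnn2 and Pdlim7 were 2.47 to 3.64 times as high in basal cells.

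Only 3 of the 15 widely expressed genes were lower in basal cells, by less than 4-fold. Actg1, the cytoplasmic gamma actin, had medians of 124 CPM in basal (0 to 520) and 410 CPM in luminal cells (78.2 to 1361), with a log2 ratio of -1.45. Tagln2 and Tpm3 had ratios of -0.46 and -0.31, and with TMM scaling, which moved the median of all genes by 0.30, that of Tpm3 was -0.01. The groups overlapped for all 3 genes.

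The regulators did not follow the structural genes. Their median log2 ratio was 0.42. None of the 6 was 4-fold higher in basal cells and 1, myocardin (Myocd), was lower, beside 14.8% and 22.8% of all genes. Myocd, the coactivator that drives smooth muscle genes through serum response factor in vessels and gut, was close to undetected everywhere: 2 reads in all adult basal cells and 42 in luminal cells, of which 97.6% came from cell 6. Serum response factor itself (Srf) stood at 28.9 CPM in basal and 78.6 CPM in luminal cells, read in 25 of 85 and 19 of 41 cells, and luminal cell 8 held 43.5% of the luminal reads. Ppp1r12a, the targeting subunit of myosin phosphatase, was 3.74 times as high in basal cells, with medians of 375 and 40.4 CPM. Ppp1r14a, the smooth muscle inhibitor of this phosphatase, had 20 reads in all adult basal cells and 4 in luminal cells.

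Serum response factor binds the CArG box, and its exact form was searched for on both strands in the window from 250 bases before to 50 bases after each start site (RefSeq, GRCm38.p6, the build of mm10). A window was found for 32 of the 37 genes, and 6 of these 32 (18.8%) held a box, beside 488 of 27025 genes with a window (1.81%). They were 1 of 13 structural genes, 4 of 15 widely expressed genes and Srf itself. The 13 leave out Actg2, Myh11 and Tagln, which had no window here, and boxes that depart from the exact form were not counted. The surroundings of the boxes are shown on the strand of the gene, with the boxes in capitals, because they name the 6 genes in which a match lies next to the start site.
Myl9, chr2:156775283-156775332, plus strand: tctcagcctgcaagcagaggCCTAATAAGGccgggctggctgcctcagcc
Cnn2, chr10:79988524-79988573, plus strand: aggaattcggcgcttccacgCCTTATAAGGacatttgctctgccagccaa
Myl6, chr10:128493030-128493079, minus strand: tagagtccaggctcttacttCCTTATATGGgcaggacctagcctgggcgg
Actg1, chr11:120348556-120348605, minus strand: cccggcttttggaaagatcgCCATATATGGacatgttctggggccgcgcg
Vcl, chr14:20929151-20929200, plus strand: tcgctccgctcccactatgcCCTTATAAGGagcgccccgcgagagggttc
Srf, chr17:46556195-46556264, minus strand: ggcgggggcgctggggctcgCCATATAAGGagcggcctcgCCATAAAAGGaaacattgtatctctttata
The boxes lay from 40 bases (Myl6, at the second of its 2 start sites) to 217 bases (Vcl) from the start. The 6 genes did not move together: Myl9 was 78.7 times as high in adult basal as in luminal cells, Myl6 5.11 times, and Actg1 and Srf were lower. A match is a description of the sequence and not a measured binding site.

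Further lists of the contraction pathway were read alongside. Of all genes, 14.8% were at least 4-fold higher and 22.8% at least 4-fold lower in adult basal cells. Of 18 calcium and oxytocin pathway genes, 7 were at least 4-fold higher in adult basal cells and none was lower. They included the oxytocin receptor Oxtr (826 and 23.4 CPM, read in 67 of 85 basal and 1 of 41 luminal cells), the calcium-activated potassium channel Kcnma1 with its beta subunit Kcnmb1, the L-type calcium channel Cacna1c, the cGMP-dependent kinase Prkg1 and its substrate Mrvi1, and the junctional protein Jph2, with no read in luminal cells. Most of these were patchy, with Kcnma1 read in 16, Cacna1c in 10 and Jph2 in 11 of 85 basal cells. Kcnmb1, Cacna1c, Mrvi1 and Jph2 also stood in the study's list of basal genes, so their direction was known from other samples. Of 10 further genes of myosin phosphatase and its signalling, none passed the 4-fold line in either direction.

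Of 19 focal adhesion and actin-turnover genes, 5 were at least 4-fold higher in basal cells, beside 14.8% of all genes. The 5 included the integrin subunit Itga1 at a log2 ratio of 9.16 (7.61 to 11.43), nexilin (Nexn) at 6.19, palladin (Palld) at 5.75 and talin (Tln1) at 2.39. Of 6 Srf cofactors and related genes, 3 were higher, namely Tgfb1i1 (Hic-5) at 7.26, Mef2c at 2.41 and Fhl2 at 2.04, while the coactivators Mrtfa and Mrtfb had ratios of 1.32 and -1.06. Nexn, Palld, Tgfb1i1 and Mef2c also stood in the study's list of basal genes, so their direction was known from other samples. Genes of the striated sarcomere were close to background. Of 12 listed only 3 could be compared and 1, Tnni3, was lower in basal cells, with no reads there and 228 reads in luminal cells, of which 83.3% came from 1 cell.

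Most markers of vascular smooth muscle were rare in adult basal cells. Of the 8 pericyte and vascular smooth muscle markers, Rgs5 and Kcnj8 had no read in any adult basal cell, and Pdgfrb, Cspg4, Notch3, Abcc9 and Ndufa4l2 were read in 1 to 4 of 85. The exception was Mcam, an adhesion molecule, which was read in 19 of 85 basal cells at 38.5 CPM and in 4 of 41 luminal cells at 8.44 CPM. The summed level of the list had a median of 0 CPM and a highest value of 1107 CPM, and 1 of 85 cells had reads of 3 or more. Acta2 and Krt14 were read in the same cell in 84 of 85. Counting pericyte, fibroblast, endothelial and immune lists, 2 of 85 adult basal, 6 of 41 adult luminal, 10 of 36 pregnancy basal, 3 of 29 pregnancy luminal and 9 of 29 pregnancy mixed cells had 3 or more markers of another type. Without these cells the counts between adult basal and luminal cells were again 17 higher and 1 lower, and the log2 ratio of Acta2 was 6.21, while those of Tpm2 and Actg2 rose to 11.08 and 8.64.

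Cell by cell, the structural genes split the adult sorts almost completely. Every adult basal cell had reads of at least 5 of the 16 genes (85 of 85, interval 95.8 to 100%), with a median of 12 and a range of 5 to 15. Among adult luminal cells 3 of 41 reached 5 genes (7.32%, 1.54 to 19.9%), and the median was 2. Without thinning, 10 luminal cells reached 5 genes, so the luminal share depended on depth.

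The 3 luminal cells above the line were unlike each other. Cell 35 had 12 of the 16 genes with 3950 CPM of Acta2, 888 CPM of Myh11 and reads of both basal and luminal keratins (Krt14 at 376 and Krt18 at 1402 CPM). Cell 43, with the pericyte markers, had 8 genes but no Acta2, and cell 30 had 5 genes and neither Acta2 nor Myh11. At the low end of the basal sort, cell 19 had 5 of the 16 genes, Acta2 at 204 CPM, Krt14 at 305 CPM and reads of all 5 immune markers, with Ptprc at 577 CPM. Whether these libraries hold 1 cell or material of another was not tested.

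**Figure D4:**
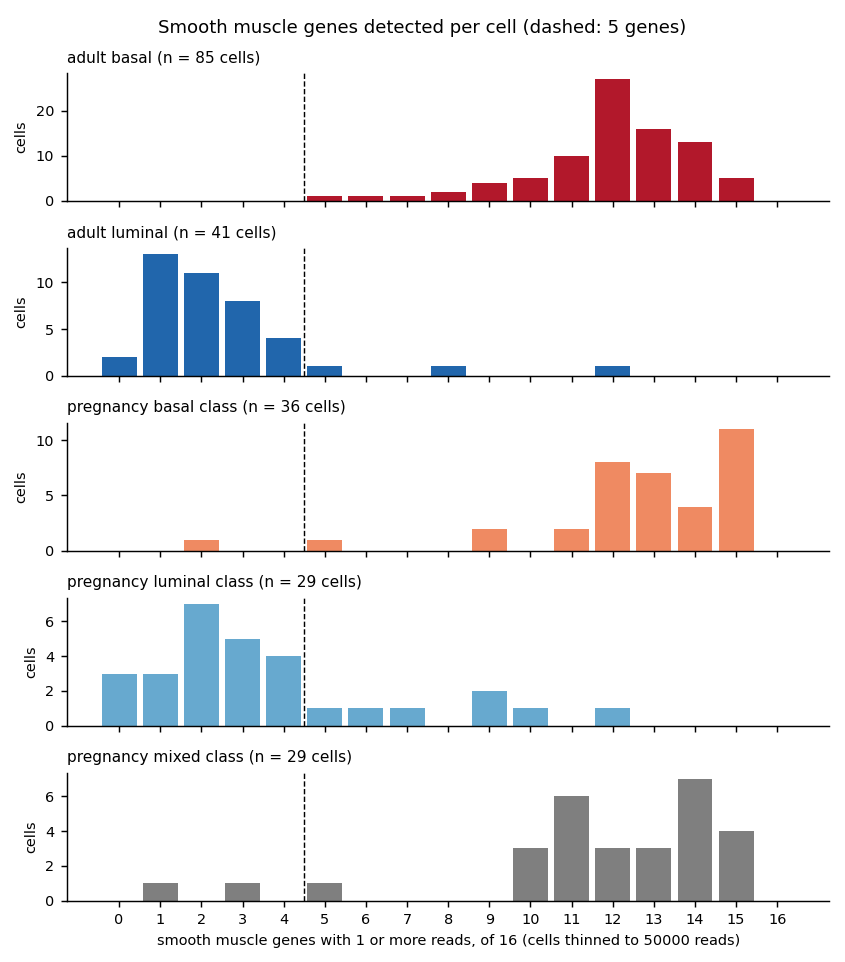
Number of the 16 smooth muscle genes read per cell after thinning to 50000 reads, as histograms of cells in 5 populations, with a dashed line at 5 genes. Adult basal and pregnancy basal cells gather around 12 and 13 genes, adult luminal and pregnancy luminal cells around 2 and 3, and pregnancy mixed cells around 12.

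In pregnancy the basal and luminal classes also differed in this count. The basal class had 35 of 36 cells with at least 5 of the 16 genes (97.2%, 85.5 to 99.9%), the luminal class 7 of 29 (24.1%, 10.3 to 43.5%) and the mixed class 27 of 29 (93.1%, 77.2 to 99.2%). Over all 96 pregnancy cells the share was 71.9%. Without thinning 19 of 29 luminal-class cells reached 5 genes, so the luminal share again depended on depth. The one basal-class cell under the line, cell 5, had 2 of the 16 genes and no reads of Acta2, Krt5 or Krt14.

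Between the basal and luminal classes of pregnancy, 25 of the 37 genes were at least 4-fold higher in the basal class and 2 were lower, beside 28.5% of all genes higher and 10.5% lower. Of the 16 structural genes 15 were higher, with a median log2 ratio of 4.90, beside 0.81 over all 13479 genes, and 5.64 over 15 genes without the highest cell of each group. The widely expressed genes had 7 of 15 higher and a median of 1.76, and the regulators 3 of 6 and a median of 1.82. Milk protein transcripts took 36.4% of the reads of the luminal class and 1.60% of those of the basal class. With TMM scaling the median of all genes moved by -0.74, to 0.07, the shares of all genes became 20.2% higher and 15.8% lower, and 14 of the 16 structural genes were at least 4-fold higher with a median of 4.16.

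Acta2 stood at 11239 CPM in the basal class, with cells from 0 to 33004 and a median of 9182, and at 312 CPM in the luminal class, with a median of 8.12 and a highest value of 2708. The ranges overlapped, and 15 of 29 luminal-class cells had an Acta2 read after thinning, against 1 of 41 adult luminal cells. Mylk gave the largest log2 ratio of the structural genes, 6.40 (6.27 to 6.53), followed by Actg2 at 5.96, Cnn1 at 5.78, Myl9 at 5.35, Myh11 at 5.30, Tagln at 5.22 and Tpm2 at 5.13. Pdlim3 and Csrp1, which stayed under the 4-fold line in adults, had ratios of 4.67 and 3.33 here. Synpo2 had a ratio of 2.69, with 99.6% of its luminal-class reads in cell 85, a cell with 12 of the 16 genes and 4 pericyte markers. Without cells with markers of another type Synpo2 had 1 read left in the luminal class, and the ratio of Myh11 was 6.04.

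Among the other genes, Pdlim7 had 771 reads in the basal and 2 in the luminal class, a ratio of 620-fold with an interval on the log2 scale of 7.42 to 12.33. Cnn2, Flna and Myh10 had log2 ratios of 4.53, 4.15 and 3.10. The order of these 3 depended on 3 luminal-class cells with markers of another type: without such cells in both classes Cnn2 and Myh10 had 6 and 4 luminal-class reads left and ratios of 8.27 and 7.28, and Flna had 4.24. Actg1 and Tpm3 were near even at 0.25 and 0.54, and with TMM scaling both turned negative, at -0.49 and -0.20. The 2 genes called lower, Des and Myocd, had no read in the basal class and 30 and 35 reads in the luminal class, of which 100% and 97.1% came from cell 85. Against a floor of 3 reads they were at least 6.21-fold and 7.25-fold lower.

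The mixed class lay between the others. Its smooth muscle genes made up 1.07% of reads, beside 3.33% in the basal and 0.11% in the luminal class. Acta2 had a median of 2737 CPM (0 to 20423) and was read in 26 of 29 mixed cells, and Actg2 in 22 of 29. Milk transcripts made up 23.1% of the reads of the mixed class. The smooth muscle share of each family was also intermediate, at 30.9% for actins and 60.0% for myosin heavy chains. Mixed cells had a median of 4271 genes after thinning, beside 3013 in the basal and 3010 in the luminal class.

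Between stages the contractile genes of the basal cells differed little in sum when all retained cells were counted. The comparison joins a sorted adult population with an unsorted pregnancy class, so stage cannot be told apart from the way in which cells were collected. Over 36 genes that could be compared, none was 4-fold higher in the pregnancy basal class than in adult basal cells and 1 was lower, namely Des, whose adult reads came almost entirely from 1 cell, beside 18.6% of all genes higher and 10.6% lower. The median log2 ratio of the 16 structural genes was 0.09 and that of all 13892 genes 0.08. Mylk had the largest ratio of the structural genes, 1.11 (1.09 to 1.13), with a median of 4561 CPM over pregnancy basal cells (4.45 to 14203). Csrp1 followed at 0.80 and Actg2 at 0.64, while Tpm2 and Tagln were lower at -0.76 and -0.54. Single cells of both groups overlapped over most of their range for each of these genes. Without cells with markers of another type (10 of 36 pregnancy basal and 2 of 85 adult basal cells), the structural ratios were higher. Mylk then had 1.39, Csrp1 1.08, Actg2 1.02 and Acta2 0.46, and Cnn1, Tpm1 and Cald1 turned positive. Only Tpm2, Synpo2, Tagln and Lmod1 remained negative, from -0.52 to -0.21, and Des could not be compared. The median of all genes without these cells is not given here.

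These small differences depended on which pregnancy cells were taken. The cell numbers in the sample titles split the pregnancy cells at 55, a division drawn after seeing the data, and the labels do not say what the numbers stand for. In the 20 basal-class cells numbered up to 55, 3 of the 16 structural genes were above adult basal cells, with a median log2 ratio of -0.53, beside 7259 of all 13699 genes and a median of 0.11. In the 16 cells numbered over 55, 12 of the 16 were above, with a median of 0.62, beside 5836 of all 13179 genes and a median of -0.26. For 9 of the 16 genes the direction was opposite between the sets.

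The division was drawn after seeing the data, so differences across it describe these cells and are no evidence of 2 kinds of cell. Acta2 is an example. It stood at 7152 CPM in the lower-numbered cells (0 to 18818, median 6731) and at 17100 CPM in the higher-numbered ones (2922 to 33004, median 16213), which gave log2 ratios to adult basal cells of -0.46 and 0.80. Tagln had ratios of -1.20 and 0.08, Myl9 -0.21 and 1.00, Cald1 -0.68 and 0.45, and Pdlim3 -1.18 and 1.26. The sets overlapped for each gene, and the higher-numbered cells had the higher level in every one of these. Mylk (0.66 and 1.59), Actg2 (0.23 and 1.07) and Csrp1 (0.28 and 1.33) were above adult basal cells in both sets, and Tpm2 (-1.33 and -0.21), Lmod1 (-0.66 and -0.47), Synpo2 (-0.90 and -0.23) and Des were below in both.

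The widely expressed genes were lower on the whole in the pregnancy basal class, with a median log2 ratio of -0.39 and 12 of 15 below 0. In the lower-numbered cells their median was also -0.39, with 12 of 15 below 0, whereas in the higher-numbered cells it was -0.27 with 8 of 15 below 0, close to the median of all genes there. Myh10 had the lowest ratio, -1.41, with -0.82 in the lower-numbered and -3.25 in the higher-numbered cells. Tpm4, a non-muscle tropomyosin, had -1.05, with -0.56 and -2.34, and Tagln2 had -0.98, with -0.84 and -1.22. Actn1, at -0.76, and Flna, at -0.49, were below adult basal cells in both sets, whereas Vcl had -0.39 and 1.22. Of the 15 genes 7 were below and 2 (Actg1 and Actn4) above adult basal cells in both sets, and the other 6 changed sign.

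The family shares reflected both groups of genes. Myh11 made up 80.8% of the myosin heavy chain RPKM in the pregnancy basal class and 67.6% in adult basal cells, and Myl9 made up 89.4% and 82.1% of the regulatory light chains. The actin share was 44.2% and 47.5%. Of the regulators, Ppp1r12a had a log2 ratio of 0.47 (with -0.33 and 1.16 by cell number), Srf had -0.03 (with 0.37 and -0.90 by cell number), and Myocd had no read in the pregnancy basal class and 2 in adult basal cells, which allows no ratio. The value of Srf rested on few cells: cell 50 held 49.7% of its reads in the pregnancy basal class, and without cells with markers of another type its ratio was -0.93. Ppp1r14a had 5 reads in the pregnancy basal class, and its ratio of 0.78 had an interval from -0.99 to 2.24.

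**Figure D5:**
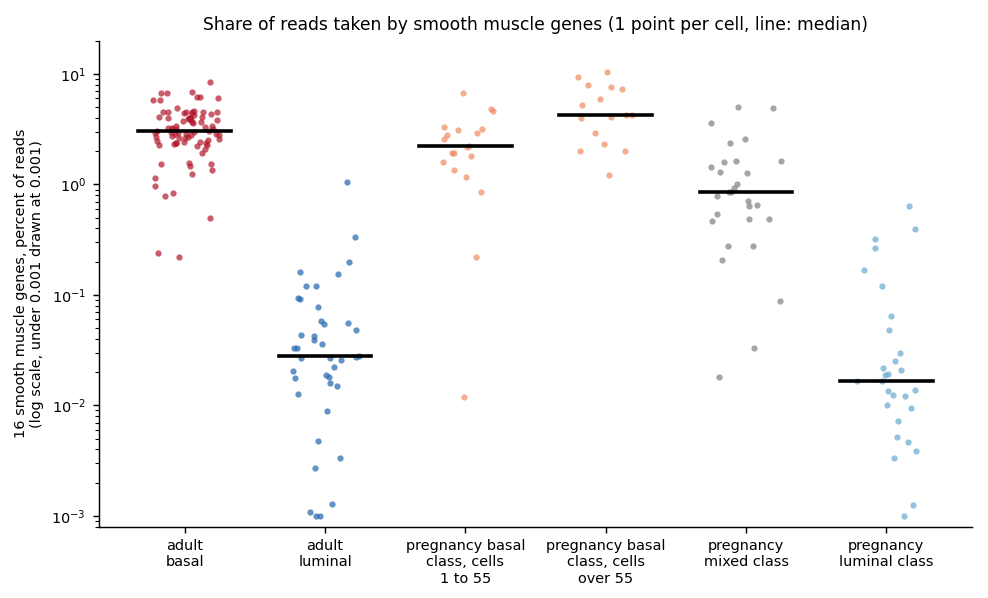
Percent of each cell's reads in the 16 smooth muscle genes (log axis, values under 0.001% drawn at 0.001%) in adult basal and luminal cells and in pregnancy cells, with the basal class split by cell number. The medians are 3.06% in adult basal cells, 2.21% in pregnancy basal cells numbered up to 55 and 4.26% in those numbered over 55.

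Few pathway genes passed the 4-fold line between the stages, beside 18.6% of all genes higher and 10.6% lower. None of the 18 calcium and oxytocin genes was 4-fold higher in the pregnancy basal class and 1 (Plcb3, a phospholipase C, at a log2 ratio of -3.40 with 7 reads in pregnancy) was lower. Others differed by more than 2-fold, among them Itpr3, a calcium release channel, at 1.93. Oxtr stood at 394 CPM in the pregnancy basal class, read in 29 of 36 cells, and at 826 CPM in adult basal cells, a log2 ratio of -1.07. Of the phosphatase and signalling genes 2 of 10 were lower, Ppp1r12b at -2.85 and Dapk3, with 1 read in pregnancy. None of the focal adhesion genes or Srf cofactors passed the 4-fold line, and of the sarcomere genes 2 of 4 were higher from at most 16 reads. Some genes of these lists, among them Kcnmb1, Cacna1c, Mrvi1, Jph2, Nexn, Palld, Tgfb1i1 and Mef2c, also helped to set the pregnancy basal class. Their levels in that class are not independent of how it was drawn.

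Within the basal layer the structural genes varied together loosely in adult cells and more closely in pregnancy cells. Over the 85 adult basal cells the median Spearman correlation between pairs of the 13 structural genes read in at least 50% of cells was 0.21, from -0.07 to 0.61. The median was 0.15 for pairs of widely expressed members and 0.06 over all 1232 genes read as often. The closest pairs were Acta2 with Tagln at 0.61, with Myl9 at 0.57 and with Cnn1 at 0.53, and Myh11 with Mylk at 0.43. In the 36 pregnancy basal cells the median over 15 structural genes was 0.47, from 0.07 to 0.85, beside 0.03 for the widely expressed members and 0.03 for all genes. The closest pair was again Acta2 with Tagln, at 0.85, and Myh11 had 0.78 with Tagln and 0.75 with Acta2. Within the cells numbered up to 55 and over 55 the medians over the same genes were 0.46 and 0.52, and without cells with markers of another type 0.43. The correlations are a description, since the cells differ in depth and in the number of genes read: the smooth muscle share of reads had a correlation of -0.27 with reads per cell in adult basal cells and -0.26 in pregnancy basal cells, and with genes read after thinning of -0.09 and -0.40.

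The genes outside the list that most resembled the summed smooth muscle share over adult basal cells, of 1202 compared, were Gm5526 at 0.51, Actb at 0.45, Gm8894 at 0.44, Col17a1, a hemidesmosome collagen, at 0.42, Postn at 0.42, Ifitm3 at 0.40, Gm10080 at 0.39 and Tubb4b at 0.38. The 3 genes named Gm are pseudogenes by annotation, and 52.4%, 24.0% and 39.8% of the 75-base windows of Gm5526, Gm8894 and Gm10080 also occur in transcripts of Myl6. Myl6 itself had correlations of 0.52 with Acta2 and 0.50 with Tagln.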

How the data were processed

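The deposited files hold raw read counts per gene and cell, made by the authors with Subread 1.4.6 and featureCounts on mm10. The counts carry no molecular identifiers. Of 27179 gene IDs, 25275 had a symbol. The analysis dropped unnamed IDs, which held 1.20% of reads, along with 154 ribosomal protein genes (1.58%) and 15 genes of the mitochondrial genome (9.54%), and kept 25106 genes. CPM was scaled to these genes. Cells with 50000 or more reads in these genes were kept (222 of 278). No 2 kept cells had identical counts.

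Each library is 1 cell and no label names an animal, so no test was run. Reads were summed over cells, and each ratio has an exact conditional 95% interval, each level a Poisson interval and each share of cells a Clopper-Pearson interval, for counting error only. A call is a CPM ratio of 4 or more, over genes with at least 1 CPM in 3 cells of the retained set. The floor for 0 reads was 3 reads over a group. On simulated counts for adult basal over adult luminal cells (15315 genes), 200 of 200 changed genes had the right direction and 95.5% of unchanged genes lay inside their interval. The simulation gave all cells of a group the same gene levels, with counting error only and no variation between cells. It therefore checked the calculation and not the calls on these cells, which varied widely.

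Pregnancy cells were classed from 191 basal and 190 luminal genes of the study's bulk lists, without members and milk genes. Thresholds were the 10th percentiles of adult basal (17.0% of genes read) and adult luminal cells (18.4%), and 1 basal, 4 luminal and 6 mixed cells lay within 2 percentage points of a threshold. Members and lists were chosen with earlier results of these data known. The rule named all members, and pathway genes at 4-fold or more, at most 6 a list, plus the 8 non-members most correlated with the smooth muscle share. Kcnmb1, Mrtfa, Mrtfb and the pathway genes given between stages were chosen after their values were seen. Correlations used log2(CPM + 1). TMM factors came from edgeR 4.0.16 (R 4.3.3). Other steps used Python 3.11.15, numpy 2.4.6, pandas 2.3.3 and scipy 1.17.1, with figures from matplotlib 3.10.9. Promoter windows are from RefSeq (GRCm38.p6) and transcripts from GENCODE. Promoter windows for Actg2, Myh11, Tagln, Myocd and 1 other member were not used here. Some members and pathway genes that count in the totals are not reported here by name.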

Additional observations from a re-analysis of the deposited data

How the results depend on the processing

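The settings tried were TMM scaling, the study's own cell minimums, equal weight of cells, leaving out the top cell of each gene, no filter on low counts, leaving out milk reads, folds of 2 and 8, other class thresholds, a class from keratins, other thinning depths and detection minimums. Splitting the pregnancy cells by title number, leaving out mixed adult luminal cells and leaving out cells with 3 or more markers of another cell type were chosen after seeing the data. Members higher in adult basal over adult luminal cells numbered 14 to 25 over all settings, and members higher in the pregnancy basal over the luminal class 18 to 31, beside 17 and 25. The share of all genes called higher moved as well. Between the adult sorts it was 14.8% as analysed, 17% with TMM scaling and 14.5% without the top cells. Between the pregnancy classes it was 28.5%, 20.2% and 26.8%. For other folds and class definitions this share is not given here, so those counts lack a background. Members called lower at 4-fold in the 3 comparisons were Des and Myocd, with nearly all reads of the higher group in single cells. Lower in adult basal cells were 0 without the top cell of each gene and 3 at 2-fold (with Actg1 and Srf). Higher in the pregnancy basal class over adult basal cells were 1 with equal weight, 1 at 2-fold, 1 with the keratin class and 1 in cells numbered over 55. Lower in that comparison were 0 without the top cell, 3 at 2-fold (with Myh10 and Tpm4), 0 with the keratin class, 2 in cells numbered over 55 (Myh10 and Tpm4) and 0 without cells with markers of another type. Lower in the pregnancy basal over the luminal class were 1 with equal weight and 0 without the top cell, at 8-fold, with the keratin class, in either set of cell numbers and without cells with markers of another type.

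Cells with 5 or more smooth muscle genes rose with depth and with a lower gene number: 24.4% of adult luminal, 85.4% of all pregnancy and 65.5% of pregnancy luminal cells without thinning, 80.8% and 54.2% of the last 2 at 100000 reads, and 36.6%, 83.3% and 55.2% of the 3 with 3 or more genes. In the pregnancy basal class the share was 100% in cells numbered over 55 and 100% without cells with markers of another type. With class thresholds at the 25th percentile, 54.2% of pregnancy cells were basal and 19.8% luminal. The cause of these differences was not tested. Ratios of single genes were compared with TMM scaling, with equal weight, without the top cell and without milk reads. Of these alternative values, 0 of 146 changed sign between the adult sorts. Between stages 6 of 143 did (Cnn1, Tpm1, Cnn2 and Srf with equal weight, Tpm1 and Pdlim7 without milk reads). Between pregnancy classes 4 of 145 did (Actg1 and Tpm3 with TMM scaling and without milk reads). No paired analysis was possible because no test was run and the labels do not say what the numbers in the sample titles stand for. With 1 sample per group, differences between animals cannot be told apart from differences between groups, and genes under the floor of 3 reads, such as Myocd in basal cells, are limited by depth.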
